A study of Homo sapiens with 6 samples.

Results

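The genes described here are 10 that encode the proximal kinases of B cell signalling and their counterweights. They are the SRC-family kinases BLK, LYN, FYN and LCK, the kinases SYK and BTK, the phospholipase PLCG2, the SRC inhibitor CSK, the tyrosine phosphatase SHP1 (PTPN6) and the lipid phosphatase SHIP1 (INPP5D). They were taken by symbol from a table of 35410 genes, and all 10 were found there. The measurement was MACE-Seq, in which each polyadenylated transcript is counted at its 3′ end, so that levels of different genes can be set side by side without a correction for length. Both lines derive from SEM, an established leukemia line of proB type that carries KMT2A::AFF1. SEM::mock carries an empty vector and SEM::EGR3 a vector for overexpression of EGR3, a zinc finger transcription factor of the early growth response family. Both received 1 µg/mL doxycycline for 48 h, and each gave 3 biological replicates. Each condition is 1 derived line, so the transgene and any other difference between the lines cannot be told apart.

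In B cells, SRC-family kinases phosphorylate the signalling motifs of the B cell receptor or its precursor, and SYK docks there and is activated. SYK and BTK then activate phospholipase C gamma, which releases calcium and diacylglycerol. CSK holds SRC kinases in their inactive form, while SHP1 removes phosphate from tyrosines and SHIP1 from the lipid that recruits BTK. LYN feeds both arms, because it also phosphorylates the inhibitory receptors that recruit SHP1 and SHIP1. BLK is known from B cells, whereas LCK and ZAP70 are best known from the T cell receptor.

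Library totals ran from 5286115 to 6181388 counts in SEM::mock and from 7293092 to 15106018 in SEM::EGR3. Levels below are CPM, counts scaled to a common library size with TMM factors, and a count of 3 in a library was taken as the detection limit. Here n is 3 libraries per line throughout, and errors are SDs unless called SE. The counts of EGR3 itself were 8, 10 and 6 for SEM::mock and 9768, 4952 and 5557 for SEM::EGR3, a rise from 1.42 ± 0.248 to 634.5 ± 27.0 CPM. The B lineage identity of the control line was not borne out by its defining markers. Of 10 B lineage markers, 8 lay at or under the limit in every SEM::mock library, among them EBF1 at 0 and PAX5 at 1, 1 and 2 counts, whereas CD24 stood at 143.2 ± 11.2 CPM. In SEM::EGR3, EBF1 reached 127.4 ± 4.23 CPM and PAX5 202.1 ± 14.7 CPM. The summed level of the 10 markers was 475.9 to 501.3 CPM there, against 132.9 to 155.5 CPM in SEM::mock. CD24 went the other way, to 23.4 ± 0.528 CPM in SEM::EGR3. MS4A1, VPREB1 and CD38 stayed low there, at 0.548, 0.623 and 0.232 CPM. Why SEM::mock lacked 8 of these markers was not tested, and the fold changes below are differences between these particular lines.

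All 10 genes passed the low-count filter and all 10 differed between the lines at an adjusted p under 0.05 (edgeR quasi-likelihood test, Benjamini-Hochberg over 15465 genes). Of all genes tested, 68.5% were called, so the call itself sets the 10 genes little apart. BLK and PTPN6 were singled out by the study from these same libraries, so their direction is not independent evidence. BLK, FYN, LCK, PTPN6, PLCG2 and INPP5D were higher in SEM::EGR3, a direction held by 36.5% of all genes tested. LYN, SYK, BTK and CSK were lower, a direction held by 32%. Libraries of the lines did not overlap for any of the 10, which was true of 70.1% of all genes. The change reached 1 on the log2 scale in 6 of the 10, against 25.2% of all genes. The median absolute log2 fold change was 1.38 over the 10 genes and 0.46 over all genes. BLK, LCK and PTPN6 had at most 7 counts in any SEM::mock library, so only their level in SEM::EGR3 brought them past the filter. PLCG2, with 9, 17 and 7 counts in SEM::mock, also needed its level in SEM::EGR3 to pass. The 10 genes were also chosen with earlier results of these data known. Both comparisons of size are therefore descriptions, and no support for a larger change in these genes as a set. These are bulk libraries, in which more expressing cells and more RNA per cell cannot be told apart.

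**Figure D1:**
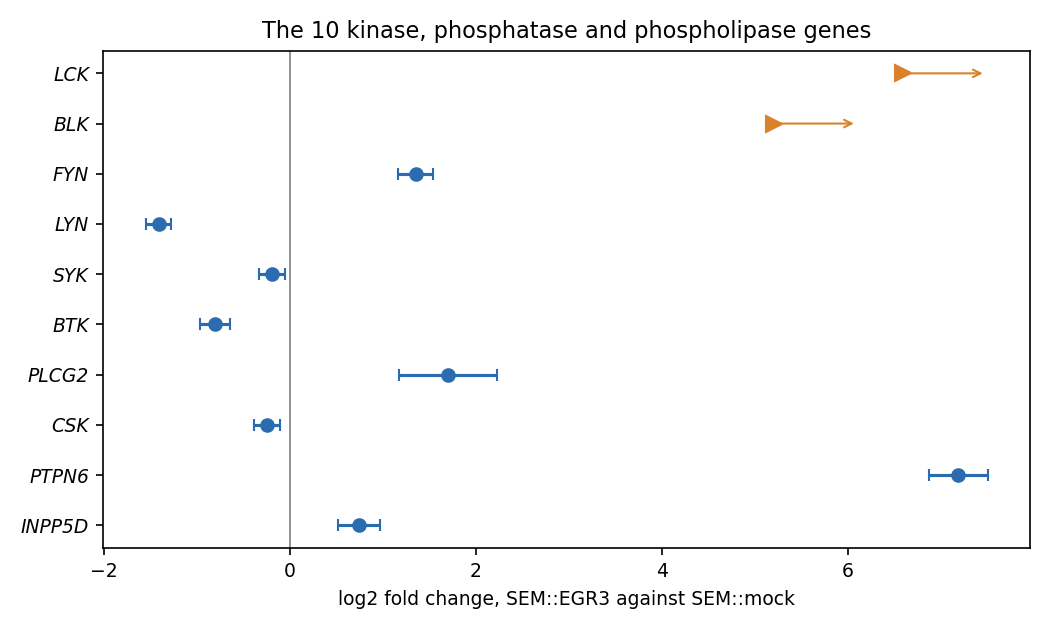
log2 fold change of each of the 10 genes, SEM::EGR3 against SEM::mock, with its 95% confidence interval (circles). Triangles with arrows mark lower bounds for LCK and BLK, which were at the detection limit in SEM::mock. PTPN6 lies at 7.19 and LYN at −1.41.

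LYN dominated the SRC family in SEM::mock. Its gene lies on the plus strand of chr8:55879813-56014168 (GRCh38). It had 99.3, 104 and 97.1 CPM in the SEM::mock libraries and 39.2, 35.6 and 37.5 CPM in the SEM::EGR3 libraries. Every SEM::EGR3 value was below every SEM::mock value, a 2.66-fold fall (log2 fold change −1.41, SE 0.07, edgeR adjusted p = 2.15e-15). Of the SRC-family counts in a library, LYN took 62.0%, 61.4% and 60.1% in SEM::mock. In SEM::EGR3 it took 19.0%, 18.0% and 18.6%. The exact binomial 95% interval was 58.7% to 65.1% in the first SEM::mock library and 17.7% to 20.4% in the first SEM::EGR3 library.

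FYN, a kinase expressed across blood and brain cells, moved the opposite way. Its gene lies on the minus strand of chr6:111660332-111873452. FYN measured 18.3, 22.9 and 21.3 CPM in SEM::mock and 55.9, 49.9 and 52.9 CPM in SEM::EGR3. The lowest SEM::EGR3 library was above the highest SEM::mock library, and the rise was 2.55-fold (log2 fold change 1.35, SE 0.09, edgeR adjusted p = 1.94e-12). Its share of the SRC-family counts went from 12.7% ± 1.11 to 26.2% ± 0.920. Within a library, FYN had 0.184 to 0.220 counts for each LYN count in SEM::mock and 1.40 to 1.42 in SEM::EGR3. This ratio depends on no scaling between libraries, and it put LYN first in every SEM::mock library and FYN ahead of LYN in every SEM::EGR3 library.

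BLK and LYN were left out of the promoter search, so nothing is said here of their motifs. For the other 8 of the 10 genes, 16 promoter windows of RefSeq (GRCh38.p14) were used. These windows run from 250 bases before to 50 bases after a transcript start. They were searched on both strands for GCGNGGGCG, the motif bound by factors of the EGR family, and for TCCCNNGGGA, the palindrome bound by EBF1. FYN was the only one of the 8 genes searched with an EGR motif. It was held by 2 of the 16 windows, against 9.43% of all 35116 windows in the table, and so few windows cannot be told from that share. PTPN6 was the only one of the 8 with an EBF1 motif, in 1 of the 16 windows, against 1.21% of all windows. As the only searched genes with a match, FYN and PTPN6 each have 1 upstream stretch shown, with its match in capitals. The other FYN window holds 2 further matches and is not printed. The FYN stretch is on the minus strand of chr6:111873453-111873702 and its match begins 128 bases before the start. It reads as the reverse complement of the motif. The PTPN6 stretch is on the plus strand of chr12:6946327-6946467 and its match begins 157 bases before the RefSeq start of that window, which lies downstream of the first annotated base of the gene in GENCODE. A match is a string of letters, not a bound site, and binding was not measured in these data. The study combined these libraries with its earlier ChIP-Seq of EGR3, which was not used here. Among the genes searched, it lists FYN, PTPN6 and PLCG2 as direct EGR3 targets, and SYK and BTK as not.
FYN: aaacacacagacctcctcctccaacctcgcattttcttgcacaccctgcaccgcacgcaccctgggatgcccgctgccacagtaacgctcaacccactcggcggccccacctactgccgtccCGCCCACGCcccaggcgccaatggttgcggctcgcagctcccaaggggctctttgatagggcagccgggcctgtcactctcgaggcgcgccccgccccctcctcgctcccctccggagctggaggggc
PTPN6: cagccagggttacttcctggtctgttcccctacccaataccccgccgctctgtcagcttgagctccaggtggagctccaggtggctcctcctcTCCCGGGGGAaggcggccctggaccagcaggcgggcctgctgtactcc

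LCK went from the detection limit to the level of FYN. It lies on the plus strand of chr1:32251239-32286165 and had 0, 0 and 2 counts in SEM::mock. In SEM::EGR3 it had 785, 402 and 469 counts, or 50.4, 53.9 and 51.6 CPM. The rise was at least 96.6-fold, set against the limit of 3 counts in each SEM::mock library (edgeR adjusted p = 2.48e-19). LCK made up 25.7% ± 1.43 of the SRC-family counts in SEM::EGR3. In SEM::mock it had 0 of 910 and 0 of 1015 family counts in the first and second libraries, where a limit of 3 counts allows shares of up to 0.330% and 0.296%. In the third it had 2 of 827, a share of 0.242% with an exact binomial 95% interval of 0.0293% to 0.871%.

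BLK, the SRC kinase best known from B cells, was not detected in SEM::mock. Its gene occupies the plus strand of chr8:11486894-11564604. Its count was 0 in all SEM::mock libraries and 325, 146 and 175 in those of SEM::EGR3, equal to 20.9, 19.6 and 19.3 CPM. The rise was at least 37.0-fold (edgeR adjusted p = 2.88e-15). An annotated antisense gene, AC022239.1, overlaps the end of BLK. It had 0 counts in SEM::mock and 13, 3 and 7 in SEM::EGR3, and whether the counting used strand is not given in the sources used here. BLK accounted for 9.84% ± 0.295 of the SRC-family counts in SEM::EGR3, so it stayed the smallest of the 4 kinases there.

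**Figure D2:**
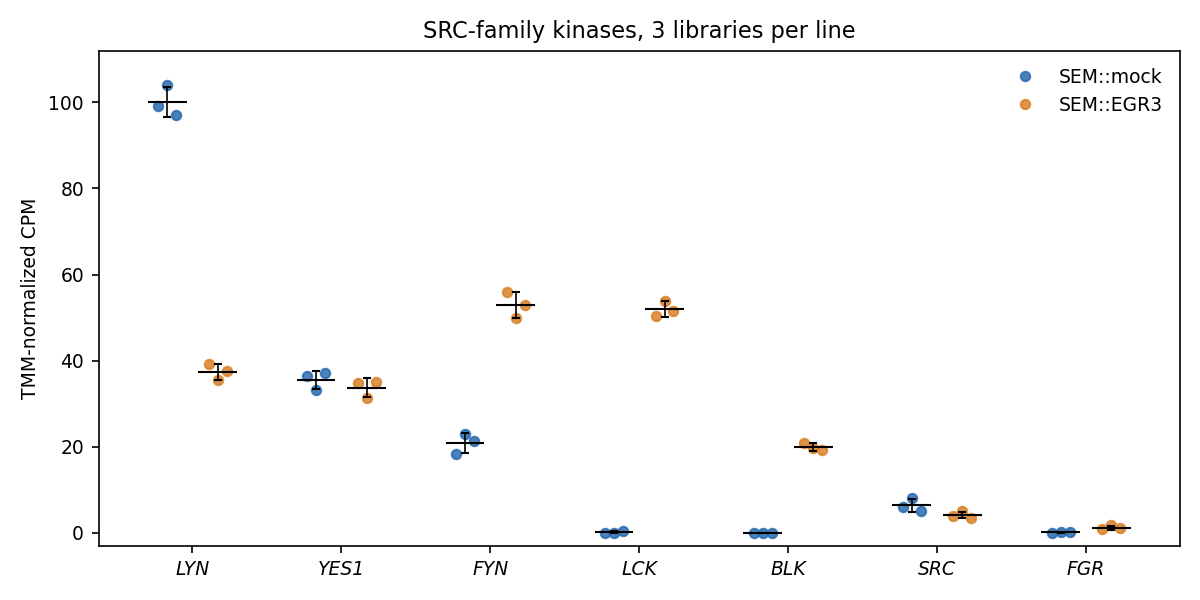
Level of 7 SRC-family kinases in TMM-normalized CPM (vertical axis), with 3 libraries per line as points, the mean as a horizontal bar and the SD as an error bar. LYN stands alone near 100.1 CPM in SEM::mock, whereas FYN, LCK, LYN and YES1 lie between 31.3 and 55.9 CPM in SEM::EGR3.

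The other SRC-family kinases moved less in CPM. YES1, a broadly expressed member, had 36.4, 33.2 and 37.1 CPM in SEM::mock and 34.8, 31.3 and 35.1 CPM in SEM::EGR3. Its libraries overlapped (log2 fold change −0.07, 95% interval −0.24 to 0.11, edgeR adjusted p = 0.504). SRC itself was lower, at 6.36 ± 1.5 against 4.12 ± 0.785 CPM (log2 fold change −0.66, SE 0.21, edgeR adjusted p = 0.00791). FGR, best known from myeloid cells, was too low to be tested, with at most 14 counts in any library. FRK, a related kinase outside the family proper, had 6 to 21 counts and did not pass the test (log2 fold change −0.09, edgeR adjusted p = 0.846).

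The order of the family therefore differed between the lines. In SEM::mock it ran LYN, YES1, FYN and SRC, with no overlap between neighbours and LYN 2.81 times as high as YES1. LCK, FGR and BLK followed at or under the limit and overlapped. In SEM::EGR3, FYN at 52.9 ± 2.99 CPM and LCK at 52.0 ± 1.78 CPM came first and overlapped. FYN was the higher of them in 2 of 3 libraries, so neither can be placed ahead of the other. LYN came next at 37.4 ± 1.85 CPM, then YES1, BLK, SRC and FGR without overlap between neighbours. LYN and YES1 lay only 1.11-fold apart there, and LYN was the higher in 3 of 3 libraries.

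The family as a whole changed less than its make-up. Its summed level was 163.7 ± 4.95 CPM in SEM::mock and 202.2 ± 4.32 CPM in SEM::EGR3, a difference of 38.5 CPM or 1.24-fold. All SEM::EGR3 libraries were above all SEM::mock libraries (two-sided exact permutation p = 0.1, with 3 against 3 the lowest attainable). LYN fell by 62.6 CPM, while FYN, LCK and BLK together rose by 103.9 CPM. On the scale of shares, LYN dropped by 42.6 percentage points, and FYN gained 13.5, LCK 25.7 and BLK 9.84 points. None of these 4 shares overlapped between the lines (two-sided exact permutation p = 0.1 each, 0.114 adjusted over the 8 shares tested).

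**Figure D3:**
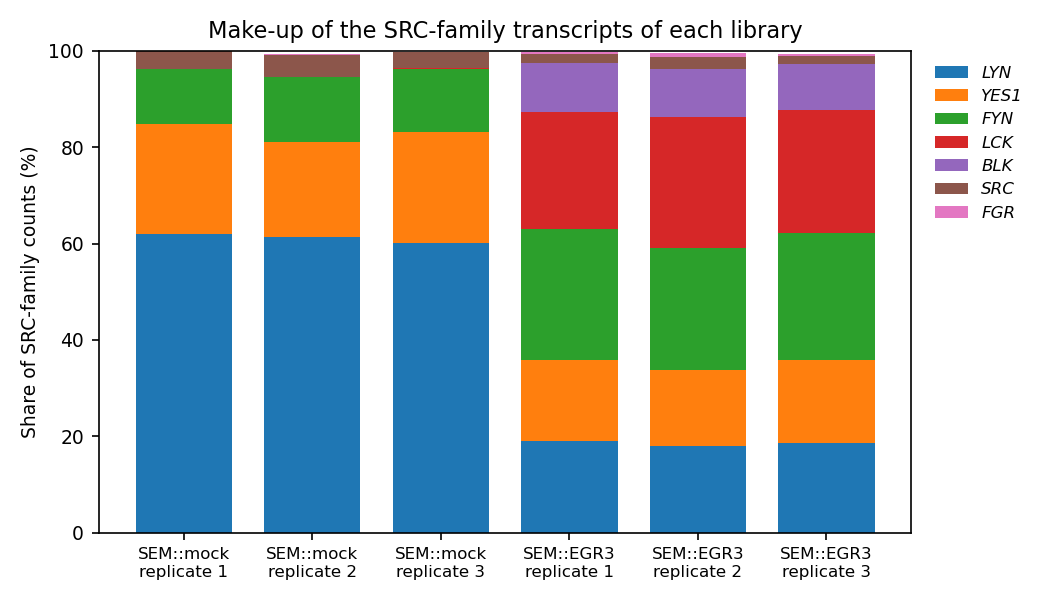
Share of each kinase in the summed SRC-family counts of every library (stacked bars, percent, replicates 1 to 3 of each line), for the kinases described here. LYN fills 60.1% to 62.0% of each SEM::mock bar and 18.0% to 19.0% of each SEM::EGR3 bar, where FYN and LCK hold the largest segments.

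SYK, the kinase that reads the phosphorylated receptor, was almost level between the lines. It lies on the plus strand of chr9:90801787-90898549. It had 61.1, 62.9 and 59.4 CPM in SEM::mock and 55.4, 50.04 and 54.4 CPM in SEM::EGR3. The values did not overlap, but the gap was small: 1.14-fold, with a log2 fold change of −0.19 (SE 0.07, 95% interval −0.33 to −0.05, edgeR adjusted p = 0.0176). The call was lost in 5 of 12 alternatives, among them DESeq2 (adjusted p = 0.0614) and scaling by library totals alone (log2 fold change −0.12, adjusted p = 0.151). ZAP70, the SYK paralog of T and NK cells, had counts of 2, 0 and 1 in SEM::mock and of 391, 211 and 212 in SEM::EGR3. It was at least 47.5-fold higher (edgeR adjusted p = 2.85e-16) and reached 25.6 ± 2.52 CPM. ZAP70 made up 31.2%, 36.1% and 30.0% of the summed SYK and ZAP70 counts in SEM::EGR3, against at most 0.573% in a SEM::mock library.

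BTK, the TEC-family kinase that phosphorylates phospholipase C gamma in B cells, was lower in SEM::EGR3. Its gene is on the minus strand of chrX:101349447-101390796. BTK measured 116, 103 and 99.4 CPM in SEM::mock and 54.2, 63.9 and 66.4 CPM in SEM::EGR3. No libraries overlapped, and the fall was 1.75-fold (log2 fold change −0.80, SE 0.08, edgeR adjusted p = 1.22e-09). BTK remained the most abundant TEC-family kinase in both lines, with 74.6% ± 1.09 of the family's counts in SEM::mock and 86.3% ± 0.858 in SEM::EGR3. Its relatives were lower too. BMX, found in myeloid and endothelial cells, dropped 6.01-fold from 27.4 ± 3.54 to 4.59 ± 0.465 CPM (edgeR adjusted p = 2.24e-14). TEC dropped 1.85-fold from 7.44 ± 1.5 to 3.98 ± 0.461 CPM (edgeR adjusted p = 0.000309). TXK, best known from T cells, had 4 to 8 counts per library and was not tested. The summed TEC family went from 142.5 ± 13.7 to 71.2 ± 6.87 CPM.

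PLCG2, the phospholipase C gamma of B cells, was higher in SEM::EGR3 from a low base. It lies on the plus strand of chr16:81739097-81962693. Its counts were 9, 17 and 7 for SEM::mock and 92, 54 and 59 for SEM::EGR3, or 1.93 ± 0.793 and 6.55 ± 0.669 CPM. The libraries were apart, and the rise was 3.26-fold (log2 fold change 1.70, SE 0.25, edgeR adjusted p = 2.02e-06). An annotated lincRNA on the same strand, AC099524.1, overlaps the start of PLCG2. It had 4 to 9 counts in SEM::mock and 3 to 16 in SEM::EGR3. PLCG1, the paralog best known from T cells and fibroblasts, fell 1.40-fold from 21.6 ± 2.57 to 15.5 ± 0.995 CPM (edgeR adjusted p = 0.000622). Their sum was 23.5 ± 1.78 CPM in SEM::mock and 22.1 ± 1.62 CPM in SEM::EGR3, with overlapping libraries (exact permutation p = 0.4). PLCG2 thus held 29.6% ± 1.07 of the summed counts in SEM::EGR3 against 8.42% ± 4.16, and PLCG1 stayed the larger in every library.

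CSK, the kinase that phosphorylates the inhibitory tail of SRC kinases, was slightly lower in SEM::EGR3. It lies on the plus strand of chr15:74782057-74803198. CSK measured 70.4, 72.4 and 80.3 CPM in SEM::mock and 64.0, 64.1 and 59.4 CPM in SEM::EGR3. The libraries did not overlap and the fall was 1.19-fold (log2 fold change −0.25, SE 0.07, edgeR adjusted p = 0.00275). Its relative MATK, which acts on the same tail, fell further, 5.01-fold from 25.8 ± 1.76 to 5.19 ± 0.898 CPM (edgeR adjusted p = 1.07e-13). CSK therefore rose from 74.3% ± 0.583 to 92.4% ± 0.998 of the summed CSK and MATK counts.

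PTPN6, which encodes SHP1, had the largest fitted change of the 8 genes that exceeded the detection limit in at least 1 SEM::mock library. Its gene occupies the plus strand of chr12:6946468-6961316, directly downstream of the stretch printed above. Its counts were 7, 7 and 1 for SEM::mock and 2038, 1009 and 1187 for SEM::EGR3. These equal 1.23, 1.17 and 0.195 CPM against 131, 135 and 131 CPM, so the groups were far apart. The log2 fold change was 7.19 (SE 0.15, 95% interval 6.87 to 7.50, edgeR adjusted p = 2.40e-22), and at 132.3 ± 2.65 CPM PTPN6 was the most abundant of the 10 genes in SEM::EGR3. PTPN11, which encodes the paralog SHP2, a phosphatase that mostly promotes signalling, stayed at 78.8 ± 4.34 and 75.8 ± 3.07 CPM. Its libraries overlapped (log2 fold change −0.05, 95% interval −0.19 to 0.08, edgeR adjusted p = 0.491). SHP1 transcripts therefore went from 1.48%, 1.43% and 0.264% of the SHP1 and SHP2 sum to 62.3%, 65.0% and 63.4%. Their sum was 79.7 ± 4.92 CPM in SEM::mock and 208.1 ± 1.98 CPM in SEM::EGR3. In SEM::EGR3, a library held 2.05 to 2.20 PTPN6 counts for each CSK count.

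INPP5D, which encodes SHIP1, rose far less than PTPN6. It lies on the plus strand of chr2:233059967-233207903. INPP5D measured 13.6, 16.2 and 15.4 CPM in SEM::mock and 24.7, 23.7 and 27.5 CPM in SEM::EGR3. The libraries did not overlap, and the rise was 1.68-fold (log2 fold change 0.75, SE 0.11, edgeR adjusted p = 1.78e-06). The gene for SHIP2, INPPL1, was the more abundant in every library and rose 1.52-fold from 98.3 ± 7.39 to 149.5 ± 9.30 CPM (edgeR adjusted p = 1.36e-08). SHIP1 kept 13.3% ± 1.83 of the pair's counts in SEM::mock and 14.5% ± 0.925 in SEM::EGR3, with overlapping libraries. Among the paralog groups described here, this was the only one in which the share of the member overlapped between the lines.

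**Figure D4:**
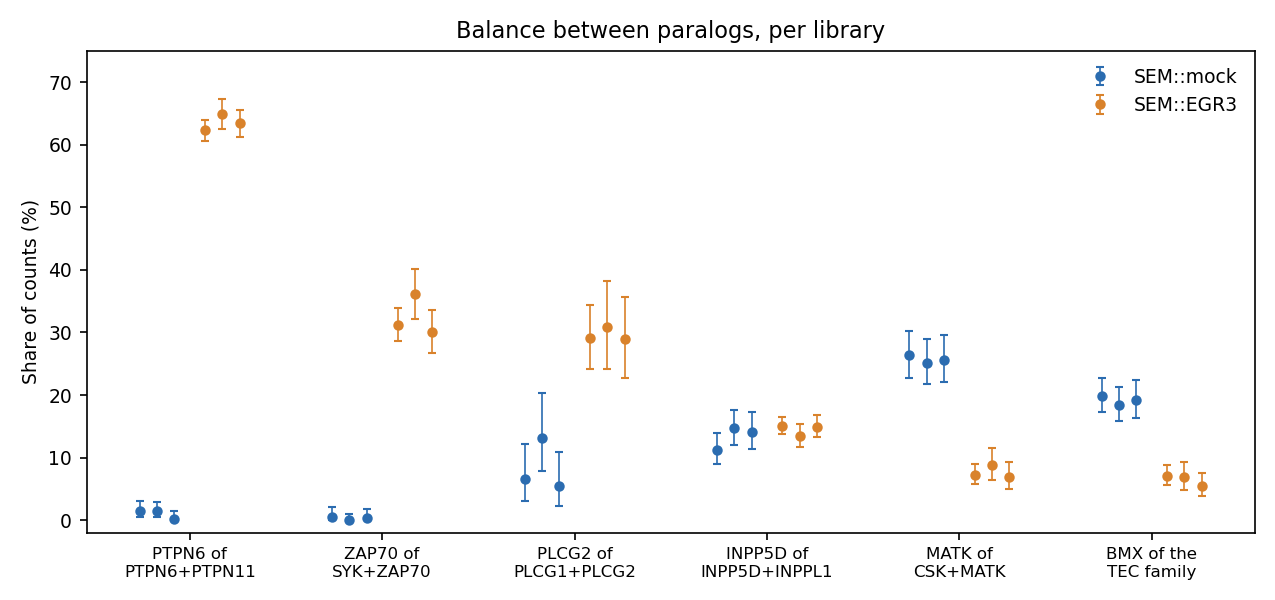
Share of 1 gene in the summed counts of its paralog group (vertical axis, percent), for each of 3 libraries per line, with exact binomial 95% intervals as error bars. PTPN6 goes from at most 1.48% to at least 62.3%, and INPP5D stays between 11.3% and 15.1%.

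Among 12 regulators of SRC kinases found in the table, 11 were tested, 3 were higher, 5 were lower and 3 were not called, with a median log2 fold change of −0.18 against 0.03 over all genes. Over all genes tested 36.5% were higher and 32% lower, so the number called is close to the background. PAG1, the membrane anchor that brings CSK to SRC kinases, had counts of 0, 0 and 1 in SEM::mock and of 102, 53 and 62 in SEM::EGR3. It was at least 12.7-fold higher (edgeR adjusted p = 2.48e-11). SH3BP2, an adaptor that binds SYK and phospholipase C gamma, rose 2.91-fold to 37.0 ± 1.76 CPM (edgeR adjusted p = 2.22e-12). PTPRJ, a receptor phosphatase that can activate SRC kinases by removing the inhibitory phosphate, fell 1.40-fold to 13.8 ± 0.345 CPM (edgeR adjusted p = 0.000388). UNC119, an activator of SRC kinases, fell 1.17-fold to 21.5 ± 0.672 CPM (edgeR adjusted p = 0.0410).

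Partners of the phosphatases were examined next. Of 19 receptors and adaptors listed as binding SHP1 or SHIP1, 11 were tested, 8 were higher, 1 was lower and 2 were not called, against 36.5% higher and 32% lower over all genes tested. In SEM::mock, 10 of the 19 were at the detection limit, and some of the 11 passed the filter only through their level in SEM::EGR3, so this count is a description and not support for a shift of the list. CD22, a B cell lectin that recruits SHP1, rose at least 43.8-fold to 23.6 ± 2.27 CPM (edgeR adjusted p = 3.64e-16). CD72, a B cell receptor that also recruits SHP1, rose 9.50-fold to 20.8 ± 2.27 CPM (edgeR adjusted p = 8.86e-14). PECAM1, an adhesion receptor with inhibitory motifs, rose 20.5-fold to 8.73 ± 0.715 CPM, and SIGLEC10, an inhibitory lectin, rose 5.73-fold to 8.81 ± 1.67 CPM (edgeR adjusted p = 1.46e-11 and 6.27e-09). The largest changes belonged to genes that do not do quite what the name of the list says. SIT1, whose product is known mainly as a partner of SHP2, had 1, 1 and 0 counts in SEM::mock and reached 115.8 ± 10.1 CPM, at least 215-fold higher (edgeR adjusted p = 5.48e-22). BANK1, an adaptor that binds LYN, rose from 1.66 ± 0.393 to 174.3 ± 9.17 CPM (log2 fold change 6.70, edgeR adjusted p = 1.59e-23). CD22 is also one of the B lineage markers.

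Downstream of SYK, BTK and PLCG2, 23 of 25 genes were tested, 12 were higher, 8 were lower and 3 were not called. Shares over all genes were 68.5% called, 36.5% higher and 32% lower. Fold changes of the listed genes had a log2 median of 0.52, against 0.03 for all genes tested. Some of the 23, such as LAT2, passed the filter only through their level in SEM::EGR3. The list was also chosen with earlier results known. Its counts and median are therefore descriptions and not support for a shift of the pathway. LAT2, a membrane adaptor of B and myeloid cells, had 1, 1 and 3 counts in SEM::mock and 112.4 ± 8.13 CPM in SEM::EGR3, at least 209-fold higher (edgeR adjusted p = 5.32e-22). PIK3AP1, the adaptor BCAP that brings in phosphoinositide 3-kinase, rose 19.0-fold to 56.5 ± 1.94 CPM (edgeR adjusted p = 2.06e-19). PRKCD, a kinase activated by diacylglycerol, rose 4.28-fold to 63.4 ± 7.98 CPM (edgeR adjusted p = 4.55e-15). The adaptor GAB1 and the exchange factors VAV3 and VAV2 rose 3.52-fold, 3.46-fold and 3.08-fold. Other genes, named after their values were seen, did not follow. BLNK, the adaptor that links SYK to BTK and PLCG2 in B cells, had 0 counts in all but 1 of the 6 libraries and 1 count there. LAT, its T cell counterpart, had at most 3 counts. LCP2, the adaptor SLP-76 of T and myeloid cells, fell 1.43-fold from 72.9 ± 3.35 to 51.1 ± 0.826 CPM (edgeR adjusted p = 2.51e-07).

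**Figure D5:**
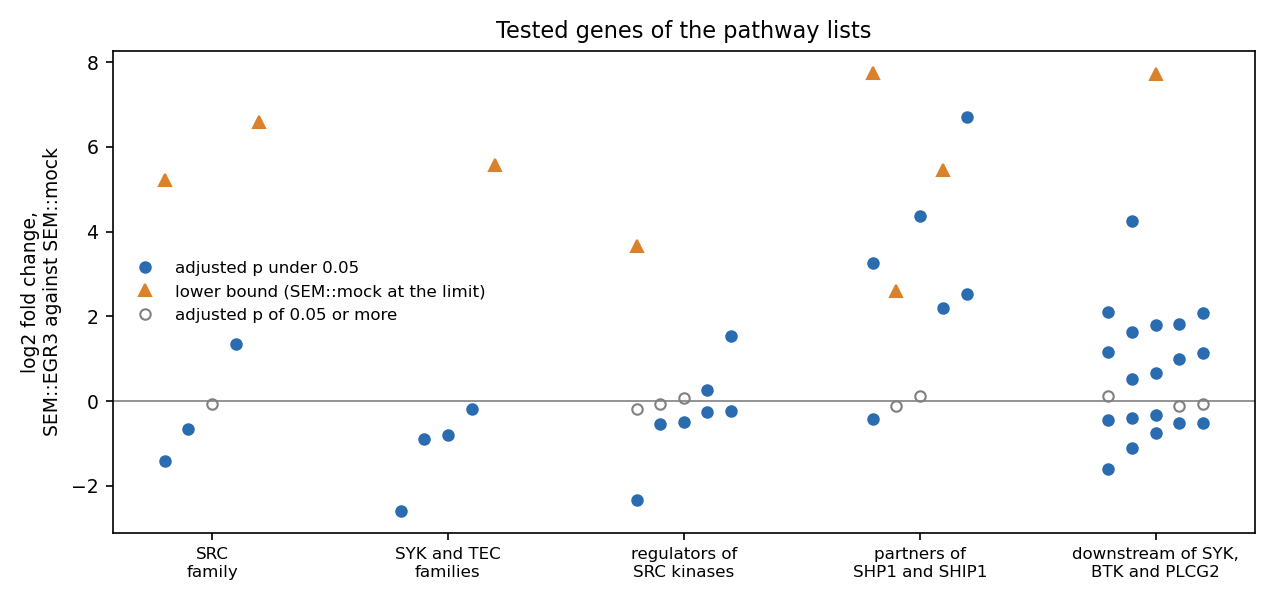
log2 fold change, SEM::EGR3 against SEM::mock (vertical axis), of every tested gene in 5 lists of the pathway. Filled circles passed an adjusted p of 0.05, open circles did not, and triangles are lower bounds of genes at the limit in SEM::mock. The list of SHP1 and SHIP1 partners has 8 of 11 genes above 0 that passed, against 36.5% of all genes tested. Some of the 11 were tested only because of their level in SEM::EGR3, so this count is a description.

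Markers of other blood cells moved in both directions between the lines. Over all genes tested 36.5% were higher and 32% lower, and the lists below hold too few tested genes to be set apart from these shares. Since LCK and ZAP70 are best known from T cells, 12 T cell markers were examined. Their summed level was 86.9 to 99.0 CPM in SEM::mock and 88.3 to 93.4 CPM in SEM::EGR3. Of these markers 6 were tested, with 3 higher and 3 lower, and CD8A was at 0 in all 6 libraries. TRAC, the constant region of the T cell receptor alpha chain, rose from 1.20 ± 0.343 to 74.4 ± 3.19 CPM alongside LCK. The receptor beta constant region TRBC1 and the receptor subunit CD3D went the other way, from 31.8 ± 5.03 to 1.70 ± 0.152 CPM and from 57.9 ± 2.33 to 6.24 ± 0.897 CPM. Of 9 myeloid markers, 5 were tested, 2 were higher, 2 lower and 1 not called. The summed level of the 9 was 284.0 to 291.3 CPM in SEM::mock and 108.6 to 111.9 CPM in SEM::EGR3. LYZ and CD33 fell with LYN and BMX, to 42.6 ± 1.32 and 47.9 ± 2.19 CPM, while ITGAM rose to 13.1 ± 1.26 CPM and MPO was at 0 in SEM::mock. Of 6 NK cell markers, 2 were tested and 2 were lower, and the sum went from 36.8 to 39.9 CPM down to 20.8 to 24.9 CPM. Of 3 platelet markers, 2 were tested, 1 was higher and 1 lower, with sums of 11.2 to 12.1 and 12.5 to 14.4 CPM. The part of these markers in the differences of the kinases was not tested.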

How the data were processed

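Gene counts of 6 MACE-Seq libraries (3 SEM::mock, 3 SEM::EGR3) were used. The deposited values are the authors' raw counts (whole numbers) for each gene, and the submitters' processing notes name bcl2fastq, Bowtie2, HTSeq and GRCh38. Versions, annotation, strand setting and handling of molecular identifiers are not given in the sources used here. Columns headed ERG3 were read as the EGR3 line. A further 12 columns with the same libraries on other scales were not used, nor were the authors' own columns of fold changes and p-values.

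From the counts, edgeR 4.0.16 (R 4.3.3) was run with its expression filter, TMM factors and quasi-likelihood test on all genes, with Benjamini-Hochberg adjustment and a threshold of 0.05. The fit was also run on simulated counts in which few genes were changed, unlike the 68.5% called here. That run cannot show how well errors are controlled in these data. Genes with 3 counts or fewer in each SEM::mock library got a lower bound, the mean SEM::EGR3 level over that of 3 counts per library. Shares of family counts carry exact binomial 95% intervals, which cover counting error only. Sums and shares were compared by exact permutation tests (Python 3.11.15, scipy 1.17.1), and figures were drawn with matplotlib 3.10.9. Alternatives were DESeq2 1.42.0, other scalings and filters, a replicate block and leaving out each library. Gene positions are from GENCODE (GRCh38).

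Members and lists were chosen with earlier results of these data known. Some genes counted in the sums and lists are not reported here by name. Named are the 10 members, their kinase families and paralogs, and from each other list up to 6 genes with the largest absolute log2 fold change among those called, without overlap and with at least 5 CPM in the higher line. Replicates of a line differed by more than counting noise (chi-square per degree of freedom 1.71 to 3.12).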

Additional observations from a re-analysis of the deposited data

How the results depend on the processing

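Over 116 fold changes of the 10 genes under alternatives, 111 kept their direction and their side of the threshold and 5 kept the direction only, all of them of SYK (log2 fold change −0.23 to −0.12, largest adjusted p = 0.151). Besides DESeq2 and library totals, these were a filter of 10 counts in every library (adjusted p = 0.0756) and the fits without SEM::mock replicate 2 (0.0507) or SEM::EGR3 replicate 2 (0.0700). Under that filter BLK, LCK, PTPN6 and PLCG2 were not tested, and 5 of the remaining 6 genes were called. Leaving out 1 library gave 9 to 10 genes called. The fitted log2 fold change of LCK, which is no bound, was 8.01 to 11.82, the highest without SEM::mock replicate 3, which held its only 2 counts in that line. With a replicate block all 10 genes were called, and 10082 genes in all against 10593, and the paired difference of the summed SRC family was 38.5 CPM. Deviations of libraries with the same number correlated at −0.105, −0.0635 and −0.0340, so the numbers were not taken to pair the samples. TXK and BLNK had too few counts to be compared at this depth, and FGR had too few for the edgeR test.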
